A study of Rattus norvegicus with 12 samples.

Results

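The knockdown of QKI in rat PAC1 cells was compared with control siRNA across all genes, to find which pathways and gene families moved beyond the siRNA target itself. The comparison took 3 libraries labelled QKI knockdown and 3 labelled C2, the negative control siRNA, which are 6 of the 12 libraries of the series. The other groups, 3 libraries of RBPMS knockdown and 3 of RBFOX2 knockdown, share the same control and served here only as direct comparisons. PAC1 is a rat line of vascular smooth muscle, taken from the pulmonary artery. All groups were grown in medium with serum under the splitting scheme that the labels give for the more differentiated state, and received 90 pmol of siRNA by reverse transfection. The study reports that control cells of its experiment with these knockdowns were less differentiated than those of its other RNA-seq experiment. Per the labels, a second transfection followed after 24 h and RNA was taken 48 h after that, though the study's methods give longer gaps. RNA was poly(A)-selected and sequenced with a strand-specific kit. Nothing in the labels says that the 3 libraries of a group came from separate cultures on separate days, so p-values measure the spread between these libraries, which may be technical. The study's methods state in general terms that replicates were biological.

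QKI, listed in the count table as Qk, is an RNA-binding protein of the STAR family (signal transduction and activation of RNA). It recognises an ACUAAY element together with a nearby partial site in pre-mRNA and mRNA, and is known for alternative splicing, circular RNA formation, mRNA stability and translation. It was first described through the quaking mouse, in which myelin is deficient, and has since been studied in vascular smooth muscle, endothelium and monocytes. The deposited tables hold counts per gene, so the values below are amounts of RNA and not splicing.

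A single siRNA sequence is listed for QKI. It is shown with the control siRNA and with the forward primer that the study lists for all Qk isoforms, because siRNA and primer share a stretch of 11 bases, printed in capitals. All are written 5′ to 3′ and the siRNA strands are the sense strands.
QK siRNA: GGACUUACAGCuaaacaac
C2 siRNA: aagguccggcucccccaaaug
Qk-all forward primer: ttggacctagaGGACTTACAGC
The shared bases are positions 1 to 11 of the siRNA and 12 to 22 of the primer, counted from the 5′ end, so the siRNA site begins within the primer. With 1 sequence per target, effects of losing QKI and effects of this siRNA on other transcripts cannot be told apart.

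The target was depleted in every library that received its siRNA. Qk was at 229.6, 242 and 229 CPM (counts scaled to a common library total) in control and at 26.0, 26.5 and 27.3 CPM in QKI knockdown, and the groups did not overlap (log2 fold change −3.13, SE 0.0396, edgeR adjusted p 3.22e-19). These are bulk libraries, in which fewer cells that express a gene and less RNA per cell cannot be told apart. Qk came 21st in the order of the largest falls when changed genes averaging 5 CPM or more are ranked. Of its STAR family relatives, Khdrbs3, which encodes the splicing regulator SLM2, went from 41.2, 41.5 and 40.3 CPM to 15.8, 15.3 and 16.1 CPM (log2 fold change −1.38, SE 0.0483, edgeR adjusted p 8.09e-14). Khdrbs1, which encodes Sam68, had a log2 fold change of −0.11, and Sf1, the branchpoint-binding protein, one of 0.39, both past an adjusted p of 0.05 and short of a 2-fold change. Scaled by library totals alone, Khdrbs1 did not pass. Khdrbs2 had at most 5 counts in any of the 6 libraries and was not tested.

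Library totals were 124 to 152 M counts in control and 111 to 132 M in QKI knockdown. Over the 6 libraries the first principal component held 77.2% of the variance and separated the groups, and the second, with 6.55%, separated control 3 from the other control libraries. The 13 protein-coding genes of the mitochondrial genome held 3.09% to 3.23% of counts in control and 3.25% to 3.36% in QKI knockdown. Smooth muscle identity was checked from its defining markers. Acta2, Tagln and Myl9 were each at 292 CPM or more in every control library, and Myh11, Cnn1 and Mylk, which mark mature contractile cells, were between 3.74 and 6.72 CPM.

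Of 18438 genes tested, 3231 changed (17.5%), which means an adjusted p under 0.05 and more than a 2-fold difference. They split into 1527 higher (8.28%) and 1704 lower (9.24%). An adjusted p alone was passed by 32.9% of genes in the higher and 34.0% in the lower direction, so for lists of genes the 2-fold counts are given first. The changed genes included 1566 with a mean under 1 CPM. Ranking was limited to the 1095 changed genes that averaged 5 CPM or more, did not overlap between groups and carried a proper symbol. Of these 787 were lower and 308 higher. The median log2 fold change over all tested genes was 0.007.

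**Figure D1:**
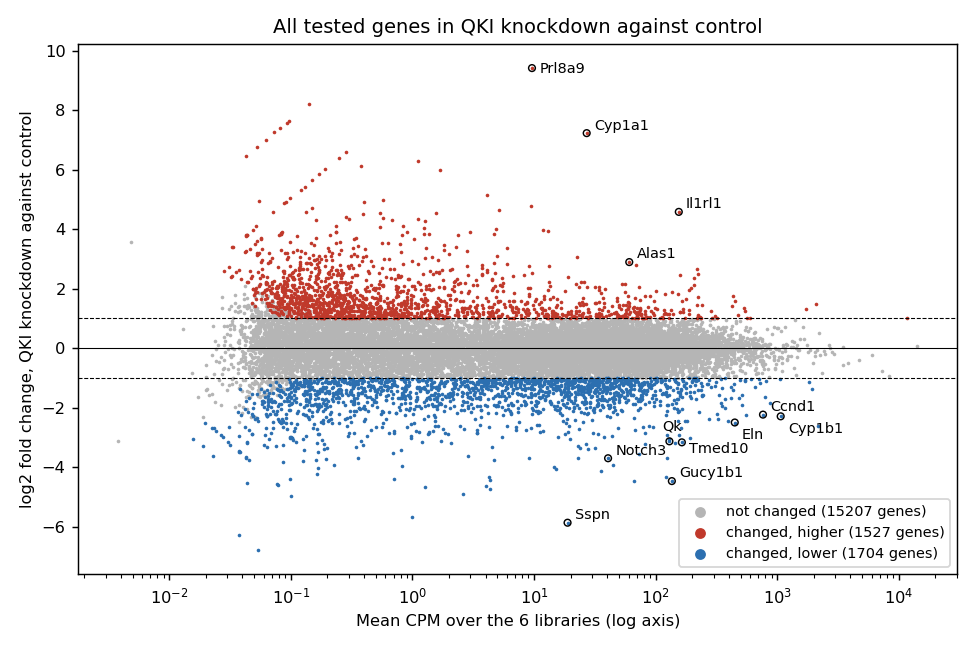
Each point is 1 of the 18438 tested genes, with its mean level over the 6 libraries on a log axis (CPM) and its log2 fold change in QKI knockdown against control. Red points are the 1527 genes that changed and were higher, blue points the 1704 that changed and were lower, and dashed lines mark a 2-fold difference. The labelled rises Prl8a9 and Cyp1a1 lie at means of 9.63 and 27.1 CPM, and the falls of Gucy1b1, Ccnd1 and Cyp1b1 at means of 136, 765 and 1070.0 CPM.

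The 15 largest falls and rises among those 1095 genes covered very different functions. Sspn, which encodes sarcospan of the dystrophin complex, was at 36.2, 36.2 and 39.1 CPM in control and at 0.664, 0.774 and 0.468 CPM in QKI knockdown, the largest fall (log2 fold change −5.87, SE 0.104, edgeR adjusted p 1.91e-17). After Gucy1b1, Igfbp7 and Esm1 came Pkia, an inhibitor of protein kinase A, at 67.4, 63.4 and 72.1 CPM and then 3.36, 4.11 and 4.09 CPM (log2 fold change −4.14, SE 0.0710, edgeR adjusted p 1.21e-17). Esm1, a secreted proteoglycan otherwise known from endothelial tip cells, went from 231, 235 and 230.5 CPM to 10.8, 12.2 and 11.4 CPM (log2 fold change −4.34, SE 0.0418, edgeR adjusted p 2.75e-20). Cmklr1, the chemerin receptor, had log2 fold change −3.69, and Cp, the copper-carrying ferroxidase ceruloplasmin, −3.37. Abracl (−3.57) and Lgalsl (−3.38) completed the group together with Ccnd2, Hgf, Notch3, Gucy1a1, Itgb8 and Col6a3, which are described with their families below.

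The largest rise was in Prl8a9, a rat gene of the placental prolactin family. It had 6, 2 and 3 counts in the control libraries and 2896, 2145 and 2246 in the QKI knockdown libraries, a ratio of 715 after scaling with a counting interval of 399.5 to 1434 (95%, exact binomial, counting error only). Low counts in the table were more often even than odd, so 1 count may not be 1 independent read and the interval may be too narrow. Its level there was 20.9, 18.7 and 18.1 CPM, and the fitted log2 fold change was 9.43, or 10.02 without control 1. In the gene order of RefSeq's GRCr8 annotation, Prl8a9 sits in a run of prolactin family genes. Prl7a3 and Prl6a1 in that run rose too, with 0, 2 and 0 and 0, 2 and 0 counts in control and 38, 54 and 90 and 56, 72 and 82 in QKI knockdown, at least 22.0-fold and 25.4-fold higher against a floor of 3 counts per library. Both had counts in control 2 alone among the control libraries. Of the 23 prolactin family symbols in the table, the other 20 had too few counts to be tested. This family was looked up after the value of Prl8a9 was seen.

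Next in size was Cyp1a1, the xenobiotic-metabolising cytochrome, described below, and then 2 interleukin 1 receptor genes. Col7a1, the anchoring fibril collagen of epithelial basement membranes, went from 1.37, 1.48 and 1.40 CPM to 21.5, 24.0 and 21.7 CPM (log2 fold change 3.98, SE 0.0927, edgeR adjusted p 4.74e-16). Siglec10, a sialic acid receptor of leukocytes, went from 1.62, 1.72 and 1.36 CPM to 25.4, 24.4 and 23.2 CPM (log2 fold change 3.96, SE 0.0829, edgeR adjusted p 1.29e-16). Alas1, the rate-limiting enzyme of heme synthesis, was at 13.9, 14.3 and 14.9 CPM and then 107, 105 and 109 CPM (log2 fold change 2.90, SE 0.0436, edgeR adjusted p 2.28e-18), while the other 7 tested enzymes of that route lay between −0.73 and 0.25 on the log2 scale. Further rises were Serpinb2 (3.12), the plasminogen activator inhibitor PAI-2, the endopeptidase Phex (2.85), Clip3 (3.07), Olfml3 (2.81), the actin-binding Aif1l (2.76) and Arpc5, the smallest subunit of the ARP2/3 actin nucleator (2.66). Of 10 ARP2/3 genes tested, Arpc5 was the 1 that was higher by more than 2-fold and Actr2 was the 1 that was lower. Actr2 had a log2 fold change of −1.11, and fell short of 2-fold in the deposited normalised table (−0.959).

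**Figure D2:**
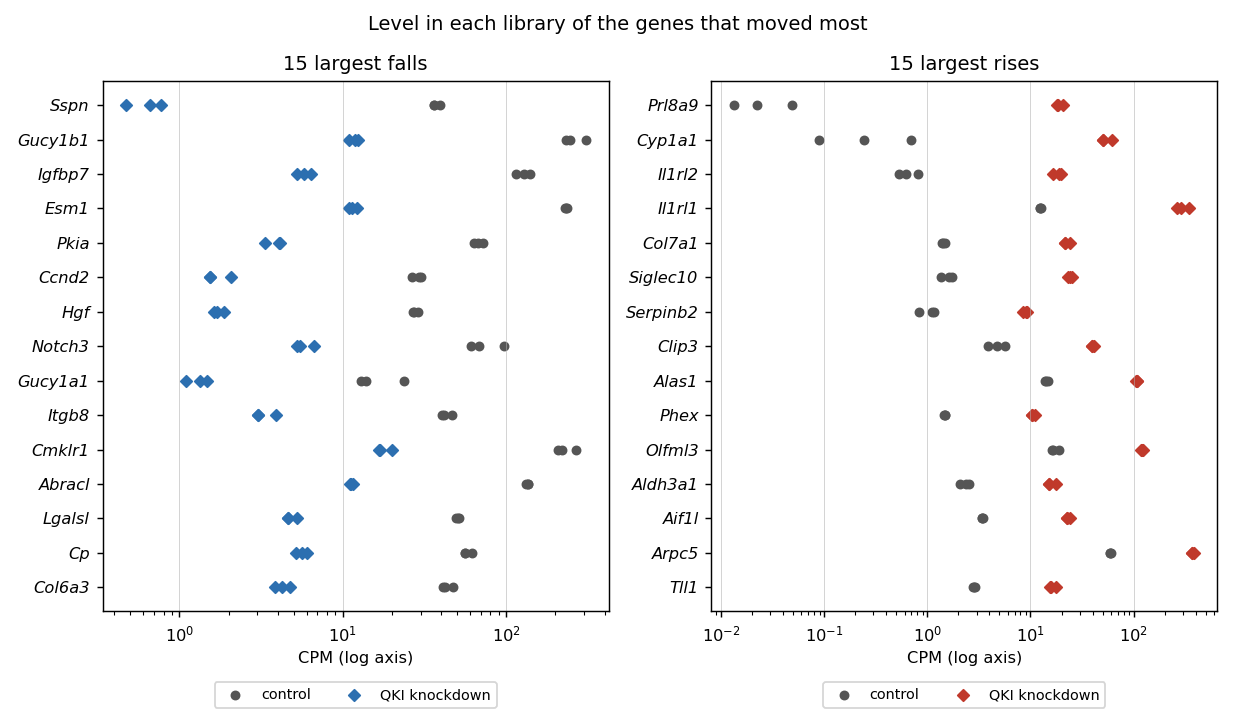
Level of the 15 largest falls (left) and the 15 largest rises (right) on a log axis in CPM. Grey circles are the 3 control libraries and coloured diamonds the 3 QKI knockdown libraries. The groups of all 30 genes lie apart because the ranking took only genes without overlap. The control libraries of Prl8a9 and Cyp1a1 rest on few counts and are widely spread.

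Gene lists for 65 pathways and families were then read against the 17.5% of all genes that changed. They held 1467 tested genes, of which 365 changed. The lists were chosen with earlier results of these data known, so an excess over all genes is partly built in. Of the 12883 tested genes that averaged 1 CPM or more, 1665 changed. The share of members that were lower by more than 2-fold was 41.9% among proteoglycans and matricellular proteins, 40% in the dystrophin complex and 36.8% in the Notch pathway, against 9.24% of all genes. Other lists with such shares included the PDGF family (57.1% of 7 genes), caveolins and cavins (44.4% of 9) and the HGF system (42.9% of 7). The cGMP and VEGF lists were at 40% and the further smooth muscle cytoskeleton at 37.0%. The share that was higher was 41.2% in the interleukin 1 family and 35.7% in the EGF family, against 8.28% of all genes. It was larger in 3 short lists, the AhR pathway (44.4% of 9 genes), fibroblast markers (50% of 8) and epithelial markers (80% of 5). Among lists near the 17.5% of all genes were NRF2 targets (17.4%), p53 targets (16.7%), the prostaglandin list (16.7%) and glycolysis and hypoxia genes (18.4%). YAP and TEAD targets and interferon response genes were at 15%. The 17.5% includes 1566 changed genes with a mean under 1 CPM. All tested NRF2 (23), p53 (24) and YAP and TEAD (20) genes averaged 1 CPM or more. For these lists the 1665 of 12883 genes is the nearer background. No member changed among 40 genes of DNA replication, 32 of mitosis, 75 cytosolic ribosomal proteins, 25 SR proteins and hnRNPs and 15 of antigen presentation. In those lists 23, 13, 22, 15 and 4 genes were higher, and 12, 9, 19, 4 and 5 lower, by adjusted p alone. Without QKI knockdown 3, 1 ribosomal and 1 mitosis gene changed, as did 1 mitosis gene without QKI knockdown 1 or control 1. Under other settings, 1 DNA replication and 1 ribosomal gene changed when libraries were scaled by their totals alone, as in the deposited normalised table. Without the filter on low counts, or with the 6 libraries fitted alone, 1 mitosis gene changed. The counts of changed genes by DESeq2 in the same order were 0, 0, 0, 0 and 0.

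**Figure D3:**
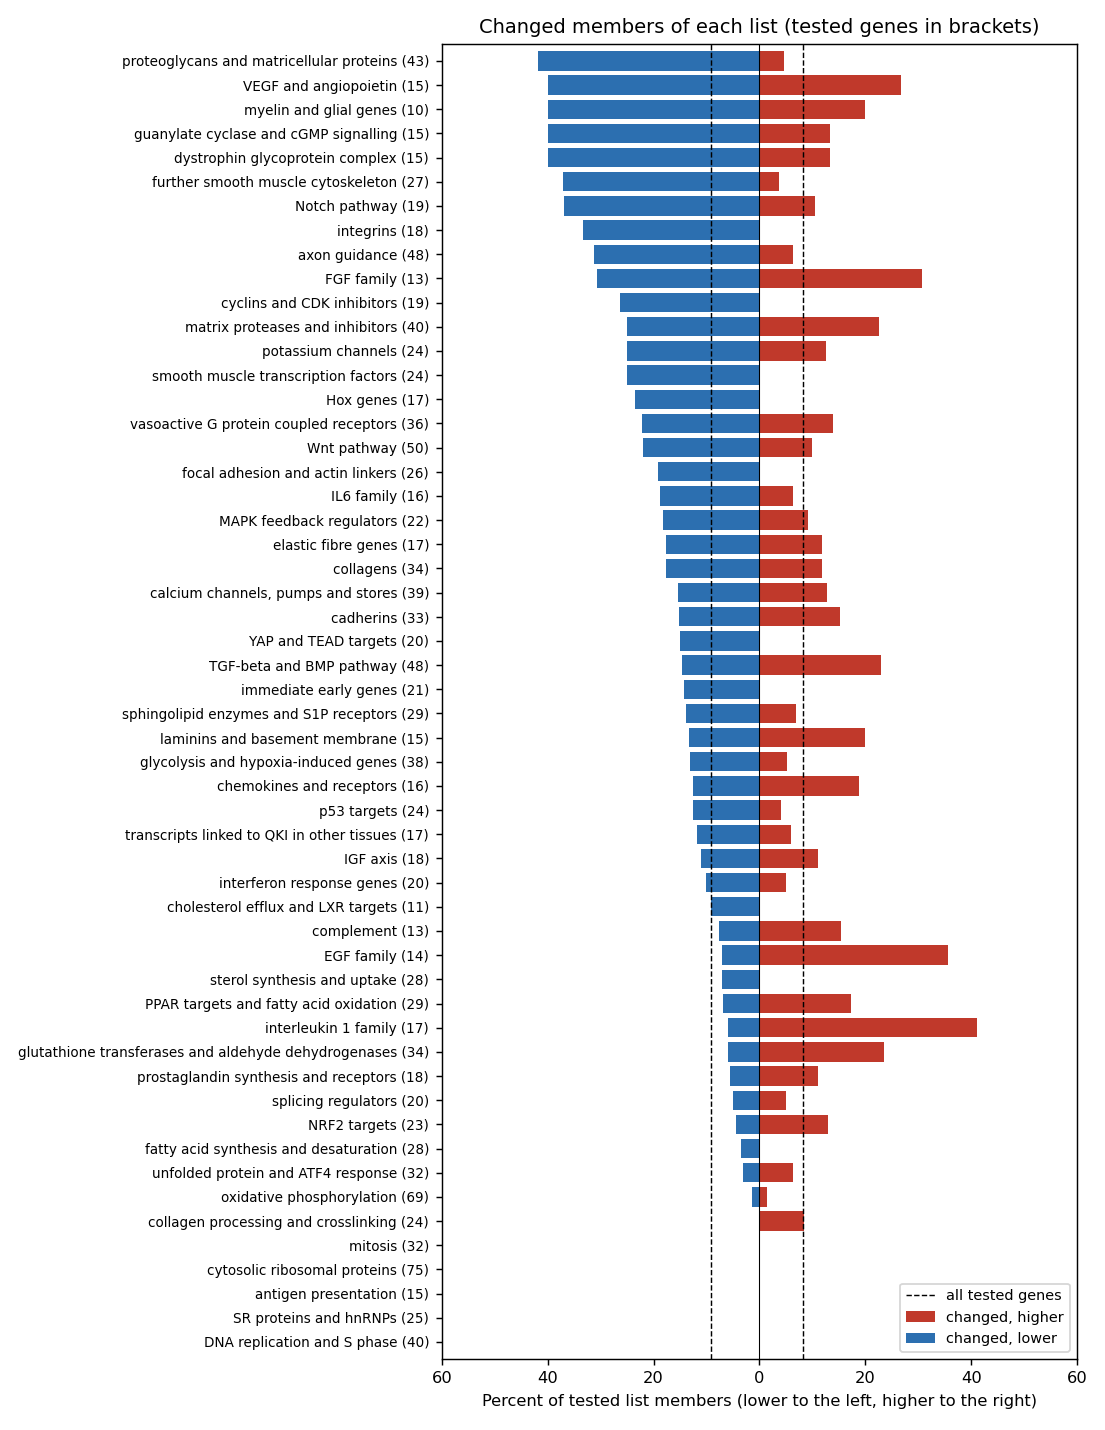
Percent of the tested members of each list that changed, lower to the left in blue and higher to the right in red, for lists with at least 10 tested genes (number in brackets). Dashed lines are the shares over all tested genes, 9.24% lower and 8.28% higher. The proteoglycan list reaches furthest to the left, the interleukin 1 and EGF lists reach furthest to the right, and the 5 lists at the foot have no changed member.

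Contractile genes moved by unequal amounts. Of 8 contractile markers that the study follows, 2 fell by more than 2-fold. Mylk, the myosin light chain kinase, went from 4.23, 3.74 and 4.56 CPM to 1.52, 1.28 and 1.51 CPM (log2 fold change −1.53, SE 0.122, edgeR adjusted p 4.74e-09), and the smooth muscle actin Acta2 from 990.3, 973 and 1006 CPM to 435, 425 and 473 CPM (log2 fold change −1.16). Cnn1 (−0.47), Myl9 (−0.66) and Smtn (−0.46) were lower by less, and Tagln was at 0.034 (adjusted p 0.592). Myh11 stood at 0.19 with overlapping groups (adjusted p 0.0474, and above 0.05 in most of the fits that left out a library), and the coactivator Myocd at 0.78. The list was chosen by the study in these cells and is not independent evidence of a direction.

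In a further list of 27 smooth muscle cytoskeletal genes 10 were lower and 1 higher. Itga7, the laminin-binding integrin subunit of muscle, went from 218, 217 and 221 CPM to 28.7, 29.5 and 28.2 CPM (log2 fold change −2.93, SE 0.0360, edgeR adjusted p 2.53e-19). Lmod1, which nucleates actin filaments in smooth muscle, went from 50.7, 47.5 and 52.6 CPM to 9.11, 9.07 and 10.3 CPM (log2 fold change −2.40, SE 0.0534, edgeR adjusted p 2.59e-16), and Pdlim5 (−1.71) and Synpo2 (−1.62) of the Z-disc and dense bodies fell as well. Among 24 smooth muscle transcription factors 6 fell and none rose by more than 2-fold, with Prrx1 (−1.83), Foxf1 (−1.57), Mef2a (−1.49) and Klf4 (−1.17) the largest, and Srf, the factor that binds CArG boxes, stood at −0.93. Of the 18 listed integrin genes that were tested 6 fell and none rose by more than 2-fold, while Itgax, a leukocyte integrin outside the list and looked up after the values were seen, rose (log2 fold change 2.97, edgeR adjusted p 1.58e-10). Itgb8, which activates latent TGF-beta, went from 40.2, 41.9 and 46.3 CPM to 3.04, 3.90 and 3.02 CPM (log2 fold change −3.70, SE 0.104, edgeR adjusted p 4.71e-15), Itga9 had −2.04 and Itga3 −1.60. Focal adhesion and actin linker genes gave 5 falls in 26, led by Palld (−1.91), Actn4 (−1.85), Lims2 (−1.25) and Lims1 (−1.23).

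The dystrophin glycoprotein complex links actin to the matrix, and its sarcoglycans form a membrane subcomplex with sarcospan. Of 15 genes 6 were lower and 2 higher. Sgcd (−1.47) and Sgcb (−1.06) fell, while Sgce went the other way, from 12.9, 12.1 and 11.3 CPM to 51.8, 49.2 and 52.0 CPM (log2 fold change 2.08, SE 0.0462, edgeR adjusted p 2.62e-16), as did Sgca (1.29). Sgcb was near the 2-fold limit, at −0.973 when libraries were scaled by their totals alone and −0.991 in the deposited normalised table. The core members Dmd (−0.76) and Dag1 (−0.34) were lower by less than 2-fold. Caveolae are membrane pits built by caveolins and cavins, of which 4 of 9 genes fell and 1 rose. Cav1 went from 535, 541 and 561 CPM to 150.3, 153 and 148 CPM (log2 fold change −1.86, SE 0.0325, edgeR adjusted p 1.48e-17), with Cav2 at −1.92, Cavin2 at −2.35 and Cavin4 at −1.21, whereas Cavin1, the coat protein that caveolae require, went from 149, 150.1 and 167 CPM to 313, 317 and 317 CPM (log2 fold change 1.02, SE 0.0431, edgeR adjusted p 9.43e-13). Cavin1 fell just short of 2-fold without control 1 (0.992) or control 2 (0.997).

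**Figure D4:**
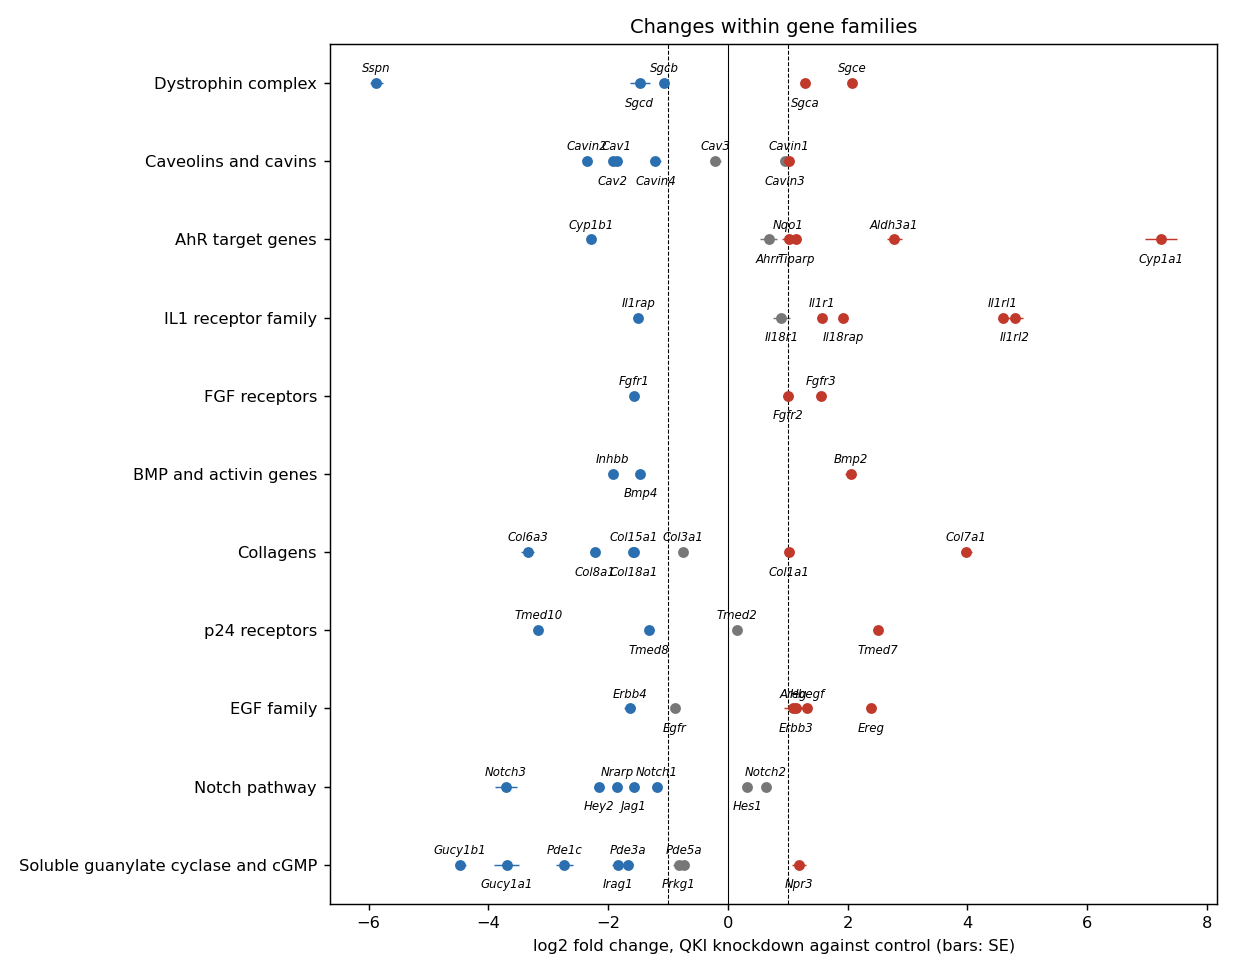
The log2 fold change in QKI knockdown against control of members of selected families, with the SE as a bar. Red points changed and were higher, blue points changed and were lower, grey points did not pass both thresholds, and dashed lines mark a 2-fold difference. Most of the families shown have both red and blue points.

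Nitric oxide relaxes smooth muscle through soluble guanylate cyclase, a dimer of an alpha and a beta subunit that makes cGMP. Both subunit genes of the dimer in these cells fell. Gucy1b1 was at 245, 231 and 306 CPM in control and 11, 12.4 and 11.9 CPM in QKI knockdown, and Gucy1a1 at 13.9, 12.8 and 23.7 CPM and 1.10, 1.48 and 1.33 CPM (log2 fold change −3.70, SE 0.211, edgeR adjusted p 5.90e-11). Control 3 was the highest control library for both genes, and leaving it out gave −4.34 for Gucy1b1 and −3.37 for Gucy1a1. The genes are neighbours in the GRCr8 gene order. The nearest tested genes on either side, Ctso and Map9, had log2 fold changes of −0.17 and 0.082 (adjusted p 0.0539 and 0.120). Further along the pathway, Pde1c (−2.73) and Pde3a (−1.66), which degrade cyclic nucleotides, and Irag1 (−1.83), the kinase substrate on calcium stores, fell, and the kinase Prkg1 (−0.82) was lower by less than 2-fold. In all, 6 of 15 genes were lower and 2 higher.

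Receptors and channels that set vessel tone moved both ways. Of 36 vasoactive receptor genes 8 were lower and 5 higher. Ramp1, the partner of the CGRP receptor, went from 4.75, 5.50 and 5.65 CPM to 0.592, 0.304 and 0.371 CPM (log2 fold change −3.63, SE 0.211, edgeR adjusted p 7.51e-11), and F2r, the thrombin receptor, from 136, 131 and 138 CPM to 21.1, 21.0 and 21.9 CPM (log2 fold change −2.66, SE 0.0382, edgeR adjusted p 1.44e-18). Ednra, the endothelin receptor of smooth muscle, had −2.40 and the serotonin receptor Htr1b −1.92. Potassium channel genes gave 6 falls and 3 rises in 24, with Kcnj2 (−2.86), Kcnk2 (−2.74) and Kcne4 (−1.88) lower. Among the 9 changed potassium channel genes 5 averaged 1 CPM or more. Genes of calcium entry and stores gave 6 and 5 in 39, with the plasma membrane pump Atp2b4 (−2.0) and Trpv2 (−1.82) lower and Trpc6 (2.18) and Cacnb1 (2.32) higher.

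Notch receptors are cut upon binding a ligand on a neighbouring cell, and the freed domain joins RBPJ on DNA to switch on genes such as Hey2 and Nrarp. Notch3, the receptor of arterial smooth muscle, went from 68.4, 60.6 and 97.7 CPM to 5.48, 6.70 and 5.28 CPM (log2 fold change −3.70, SE 0.180, edgeR adjusted p 6.61e-12). The ligand Jag1 went from 141, 137 and 151 CPM to 46.3, 49.7 and 48.2 CPM (log2 fold change −1.57, SE 0.0444, edgeR adjusted p 5.00e-15). Of the target genes, Hey2 was at 72.5, 63.6 and 83.3 CPM and then 16.7, 18.1 and 14.9 CPM (log2 fold change −2.15, SE 0.0830, edgeR adjusted p 3.02e-13), and Nrarp at 40.9, 40.2 and 45.1 CPM and then 11.8, 12.4 and 10.9 CPM (log2 fold change −1.85, SE 0.0620, edgeR adjusted p 4.68e-14), with no overlap in either. Notch1 stood at −1.19. Notch2 (0.64) and the target Hes1 (0.32) were higher by less than 2-fold, and the groups of both did not overlap. In the list 7 of 19 genes were lower and 2 higher, with a median of −0.0052. The promoter window of Hey2 (mostly upstream of the gene start, RefSeq, GRCr8, chr1:28640850-28641149, + strand) is shown because its gene fell with the receptor. The letters GTGGGAA, which RBPJ binds, or their reverse complement are in capitals.
Hey2 promoter: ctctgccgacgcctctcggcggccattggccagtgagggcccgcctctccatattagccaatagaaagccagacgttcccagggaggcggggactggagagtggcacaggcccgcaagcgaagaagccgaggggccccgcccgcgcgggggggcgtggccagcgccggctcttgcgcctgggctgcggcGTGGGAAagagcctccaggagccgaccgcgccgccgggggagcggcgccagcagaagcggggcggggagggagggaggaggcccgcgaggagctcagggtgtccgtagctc
The window holds 1 match, as do 6.19% of 27457 promoter windows in the table when both strands are searched. Of 9 Notch pathway genes looked up, 8 had a window and 3 held the letters, namely Hey2, Hes5 and Hes1. A match is a description of the sequence and not of binding.

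Among 19 cyclin and CDK inhibitor genes 5 fell and none rose by more than 2-fold. D cyclins drive cells past the G1 checkpoint guarded by the retinoblastoma protein. Ccnd2 went from 26.4, 29.2 and 30.3 CPM to 1.54, 2.06 and 1.53 CPM (log2 fold change −4.07, SE 0.107, edgeR adjusted p 2.04e-15) and Ccnd1 from 1243, 1322 and 1221 CPM to 268, 261 and 276 CPM (log2 fold change −2.23, SE 0.0366, edgeR adjusted p 6.71e-18), while Ccnd3 had −0.43. The brakes Rb1 (−2.01) and Cdkn2b (−1.91) fell with them. The DNA replication and mitosis lists had medians of 0.16 and 0.07. Of 24 p53 targets 3 fell, among them Tp53inp1 (−1.80) and Ccng1 (−1.39), and Gadd45a (1.38) rose.

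In the PDGF family 4 of 7 genes were lower, with a median of −1.5. Pdgfa went from 105, 106 and 107 CPM to 27.1, 30.2 and 28.8 CPM (log2 fold change −1.88, SE 0.0486, edgeR adjusted p 1.65e-15), and Pdgfd (−2.46) and Pdgfrl (−1.5) fell, while the receptors Pdgfrb (−0.60) and Pdgfra (−0.61) were lower by less than 2-fold and the ligand Pdgfc was at 0.80. Hgf, the ligand of the receptor Met, went from 27.0, 27.3 and 28.9 CPM to 1.70, 1.86 and 1.63 CPM (log2 fold change −4.01, SE 0.102, edgeR adjusted p 1.38e-15), Met itself had −0.72, and the inhibitor Spint2 of the HGF-activating proteases went from 153, 143 and 155 CPM to 42.7, 42.4 and 42.1 CPM (log2 fold change −1.82, SE 0.0419, edgeR adjusted p 4.00e-16). The HGF list gave 3 falls and 1 rise in 7 genes, and the IGF list 2 and 2 in 18. Igfbp7, a secreted binding protein of the IGF axis, was at 128, 115 and 141 CPM and then 5.80, 6.39 and 5.27 CPM, and the receptor Igf1r had −0.71.

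In the FGF family 4 of 13 genes were lower and 4 higher, and 4 of the 8 changed genes averaged 1 CPM or more. Fgfr1 went from 26.7, 26.8 and 30.5 CPM to 9.82, 9.01 and 9.53 CPM (log2 fold change −1.56, SE 0.0599, edgeR adjusted p 2.65e-13) and Fgfr3 from 17.1, 16.9 and 17.7 CPM to 48.0, 57.7 and 46.8 CPM (log2 fold change 1.56, SE 0.0849, edgeR adjusted p 2.99e-11), with Fgfr2 at 1.01, which fell short of 2-fold without control 1 (0.997), control 2 (0.976), QKI knockdown 1 (0.947) or QKI knockdown 3 (0.993), and the ligand Fgf1 fell (−1.97). In the EGF family 5 of 14 genes were higher and 1 lower. Ereg, which encodes the ligand epiregulin, went from 6.35, 6.71 and 5.24 CPM to 33.3, 29.4 and 33.5 CPM (log2 fold change 2.39, SE 0.0743, edgeR adjusted p 1.69e-14), and Hbegf (1.32) and the receptor Erbb3 (1.13) rose while Erbb4 (−1.64) fell. In the VEGF and angiopoietin list 6 of 15 genes were lower and 4 higher. Angpt2 went from 29.8, 24.2 and 40.6 CPM to 5.26, 6.75 and 4.49 CPM (log2 fold change −2.52, SE 0.165, edgeR adjusted p 3.46e-10), Angpt1 had −1.90 and Angptl2 −2.20, whereas the lymphangiogenic ligand Vegfd went from 0.849, 1.06 and 1.49 CPM to 8.45, 9.26 and 7.2 CPM (log2 fold change 2.87, SE 0.150, edgeR adjusted p 1.75e-11). Of 22 genes that MAPK signalling induces as its own brake 4 fell, among them Dusp6 (−1.33) and Etv1 (−1.47), and 2 rose, among them Spred3 (1.32).

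Of 43 proteoglycan and matricellular genes 18 were lower and 2 higher, with a median of −0.50 against 0.007 over all genes. Spp1, the matricellular protein osteopontin, went from 3820.2, 3959 and 3397 CPM to 602, 551 and 688 CPM (log2 fold change −2.60, SE 0.0807, edgeR adjusted p 1.67e-14). Aspn went from 5.88, 5.33 and 6.75 CPM to 0.736, 0.757 and 0.968 CPM, and Mgp (−2.5) and Dcn (−2.25) fell. Eln, the elastin of arterial walls, went from 665, 583 and 1038 CPM to 141, 139.8 and 124 CPM (log2 fold change −2.5, SE 0.145, edgeR adjusted p 6.84e-11), and the elastic fibre proteins Ltbp2 (−2.01) and Fbln5 (−1.72) fell, so that the elastic fibre list held 3 falls and 2 rises in 17. Control 3 was the highest control library for Eln, and without it the log2 fold change was −2.21.

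Of 34 collagen genes 6 were lower and 4 higher. Col6a3, a chain of the beaded filament collagen VI, went from 42.0, 41.0 and 47.3 CPM to 4.24, 4.72 and 3.87 CPM (log2 fold change −3.34, SE 0.105, edgeR adjusted p 1.93e-14), and Col8a1, a short-chain collagen of vessel walls, from 499, 508 and 564 CPM to 109, 125 and 101 CPM (log2 fold change −2.23, SE 0.0740, edgeR adjusted p 4.11e-14). Col1a1, the main fibrillar chain, went from 7300.2, 7292 and 8388 CPM to 15219, 16937 and 14452 CPM (log2 fold change 1.02, SE 0.0717, edgeR adjusted p 9.60e-10). It fell short of 2-fold in the deposited normalised table (0.801) and without control 1 (0.985), control 2 (0.984) or QKI knockdown 2 (0.954). Of 24 collagen processing genes 2 changed, P4ha2 (1.63), a prolyl hydroxylase, and Tll1 (2.53), and both rose. Laminins and the basement membrane gave 5 changed genes in 15, and 3 without QKI knockdown 3. Npnt, an integrin ligand, went from 47.9, 49.6 and 48.9 CPM to 4.68, 5.86 and 5.06 CPM (log2 fold change −3.23, SE 0.0814, edgeR adjusted p 1.22e-15), and Lamb3 (1.48), a chain of an epithelial laminin, rose. Of 40 proteases and inhibitors 10 were lower, with the inhibitor Timp2 from 1195, 1158 and 1279 CPM to 375, 386 and 391 CPM (log2 fold change −1.66, SE 0.0444, edgeR adjusted p 2.64e-15) and Adamts15 at −2.01, and 9 were higher, with the membrane inhibitor Reck at 1.53.

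The aryl hydrocarbon receptor (AhR) is a ligand-activated factor whose textbook targets are the CYP1 cytochromes. Cyp1a1 was at 0.245, 0.698 and 0.0881 CPM in control and 50.3, 50.2 and 61.3 CPM in QKI knockdown (log2 fold change 7.24, SE 0.264, edgeR adjusted p 1.40e-13). Its control counts were 30, 104 and 12, and without control 2 the log2 fold change was 8.36. Aldh3a1 went from 2.38, 2.54 and 2.06 CPM to 15.1, 15.1 and 17.7 CPM (log2 fold change 2.78, SE 0.122, edgeR adjusted p 1.65e-12) and Tiparp, a feedback enzyme, from 53.4, 55.6 and 44.7 CPM to 110.1, 107 and 123 CPM (log2 fold change 1.14, SE 0.0762, edgeR adjusted p 4.60e-10). Cyp1b1 moved against them, from 1771, 1889 and 1672 CPM to 349, 366 and 374 CPM (log2 fold change −2.29, SE 0.0600, edgeR adjusted p 2.02e-15). In the AhR list 4 of 9 genes were higher and 1 lower. The repressor Ahrr had 0.68, and the receptor genes Ahr and Arnt −0.34 and 0.26. The Cyp1b1 promoter window (RefSeq, GRCr8, chr6:21094315-21094614, + strand) is shown because this gene fell while other AhR targets rose. The letters GCGTG, the core of the AhR element, or their reverse complement are in capitals.
Cyp1b1 promoter: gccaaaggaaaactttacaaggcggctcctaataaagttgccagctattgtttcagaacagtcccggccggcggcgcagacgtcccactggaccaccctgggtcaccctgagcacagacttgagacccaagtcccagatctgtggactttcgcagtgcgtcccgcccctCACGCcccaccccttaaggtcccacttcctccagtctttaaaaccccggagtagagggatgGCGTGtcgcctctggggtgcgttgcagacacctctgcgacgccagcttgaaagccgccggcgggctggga
It holds 2 matches, and 31.1% of promoter windows hold at least 1, so the letters are common. Tiparp, Nqo1 and Ahrr hold them too, and Cyp1a1 and Aldh3a1 are the 2 of 7 genes looked up that have no entry.

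Antioxidant genes of the NRF2 list gave 3 rises and 1 fall in 23, a share of 17.4% beside 17.5% of all genes. All 23 averaged 1 CPM or more, and of all genes at that level 1665 of 12883 changed. Txnrd1, the thioredoxin reductase, went from 104, 105 and 100.3 CPM to 340.3, 333 and 357 CPM (log2 fold change 1.74, SE 0.0373, edgeR adjusted p 1.73e-16) and Hmox1, which breaks down heme, from 128, 142 and 84.0 CPM to 328, 284 and 359 CPM (log2 fold change 1.45, SE 0.134, edgeR adjusted p 3.53e-08). Nqo1, shared with the AhR list, had 1.01 and fell short of 2-fold without control 3 (0.875) or QKI knockdown 3 (0.935). Ephx1 fell (−2.61). Among glutathione transferases and aldehyde dehydrogenases 8 of 34 were higher, with Aldh1l2 (1.45) and Aldh1a3 (1.22), and 2 lower, with Mgst3 at −2.12.

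The interleukin 1 receptor family recognises IL-1, IL-18, IL-33 and IL-36, and most of its signalling receptors share the accessory chain Il1rap. Of 17 tested family genes 7 were higher and 1 lower, and 5 of these 8 averaged 1 CPM or more. Il1rl2, the IL-36 receptor, went from 0.621, 0.806 and 0.536 CPM to 16.5, 18.8 and 19.6 CPM (log2 fold change 4.79, SE 0.135, edgeR adjusted p 4.71e-15). Il1rl1, the IL-33 receptor, went from 12.3, 12.4 and 12.6 CPM to 291, 343 and 261 CPM, and Il1r1, the receptor for IL-1 itself, from 30.1, 30.8 and 29.4 CPM to 87.7, 90.3 and 90.6 CPM (log2 fold change 1.57, SE 0.0488, edgeR adjusted p 1.69e-14). Il18rap had 1.92 and Il18r1 0.89. These genes lie in 1 chromosomal cluster. In the GRCr8 order the protein-coding genes run Map4k4, Il1r2, H3f3al3, Il1r1, Il1rl2, Il1rl1, Il18r1, Il18rap and Slc9a4, and all 6 receptor genes were higher by adjusted p, 5 of them by more than 2-fold. At the edges Map4k4 was lower (−1.01) and Slc9a4 did not pass (1.36, adjusted p 0.167), and Il1r2 rested on 2, 4 and 2 counts in control and 17, 8 and 16 in QKI knockdown. The accessory chain Il1rap went the other way, from 70.3, 70.5 and 75.6 CPM to 25.3, 25.5 and 26.1 CPM (log2 fold change −1.49, SE 0.0403, edgeR adjusted p 2.96e-15), and the adaptor Myd88 had −0.33. The cluster was drawn up after these values were seen.

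The IL6 family gave 3 falls and 1 rise in 16. The receptor Il6r went from 58.2, 59.7 and 59.9 CPM to 14.6, 15.6 and 14.8 CPM (log2 fold change −1.98, SE 0.0429, edgeR adjusted p 1.91e-16) and Cntfr, the receptor of ciliary neurotrophic factor, went from 0.0817, 0.188 and 0.103 CPM to 3.15, 2.87 and 3.03 CPM (log2 fold change 4.56, SE 0.273, edgeR adjusted p 1.10e-10). Chemokine genes gave 3 rises and 2 falls in 16, with Ccl2 at 1.25 and Ccl7 at −1.37. Of 20 interferon response genes 2 were lower and 1 higher, and 1 gene changed without control 3. In complement, with 3 changed of 13, the membrane inhibitor Cd59 fell (−2.76) and Clu (1.15) and Masp1 (1.58) rose.

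The TGF-beta and BMP list gave 11 rises and 7 falls in 48 genes, and 11 of the 18 changed genes averaged 1 CPM or more. Bmp2 went from 9.21, 10.7 and 7.72 CPM to 35.8, 37.2 and 41.4 CPM (log2 fold change 2.05, SE 0.0939, edgeR adjusted p 2.92e-12) and Bmp4 from 70.2, 67.7 and 70.0 CPM to 25.1, 25.5 and 24.9 CPM (log2 fold change −1.46, SE 0.0408, edgeR adjusted p 4.46e-15), which are closely related ligands. Tgfb2 (−1.68) and the activin subunit Inhbb (−1.92) fell, and the receptor Tgfbr1 was at 1.15. In the Wnt list 11 of 50 were lower and 5 higher, and 10 of the 16 changed genes averaged 1 CPM or more. The antagonists Dact1, from 62.1, 62.3 and 77.3 CPM to 7.5, 9.37 and 8.34 CPM (log2 fold change −3.0, SE 0.102, edgeR adjusted p 5.39e-14), and Dkk3 (−2.10) fell together with the receptor Fzd6 (−1.54), and the ligand Wnt4 went from 14.3, 14.7 and 10.9 CPM to 55.2, 57.8 and 53.5 CPM (log2 fold change 2.06, SE 0.0870, edgeR adjusted p 9.73e-13). Axon guidance genes, which also steer vessels, gave 15 falls and 3 rises in 48. The netrin receptor Unc5b went from 538, 576 and 546 CPM to 102, 107 and 107 CPM (log2 fold change −2.40, SE 0.0462, edgeR adjusted p 5.61e-17), and Sema7a (−2.74), Plxna4 (−2.73) and Plxnb1 (−2.44) fell. Of 20 YAP and TEAD targets 3 fell, with Crim1 from 264, 263 and 292 CPM to 36.3, 35.3 and 37.5 CPM (log2 fold change −2.91, SE 0.0567, edgeR adjusted p 6.20e-17) and Ccn2 at −1.32.

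Lists of secretory pathway complexes were looked up after the values were seen. The p24 proteins are cargo receptors that cycle between endoplasmic reticulum and Golgi. Tmed10 went from 294, 299 and 296 CPM to 32.8, 32.1 and 34.0 CPM (log2 fold change −3.17, SE 0.0344, edgeR adjusted p 6.74e-20), beside −3.13 for Qk. Tmed7 went from 66.4, 67.2 and 66.2 CPM to 375, 385 and 369 CPM (log2 fold change 2.5, SE 0.0327, edgeR adjusted p 4.62e-19), Tmed8 had −1.32 and Tmed2, which pairs with Tmed10, 0.14. Among 21 translocon and oligosaccharyltransferase genes Ssr2 went from 49.3, 48.0 and 48.3 CPM to 269, 272 and 268 CPM (log2 fold change 2.47, SE 0.0497, edgeR adjusted p 8.71e-17), the catalytic subunit Stt3a from 75.9, 76.8 and 82.0 CPM to 339, 341 and 338 CPM (log2 fold change 2.12, SE 0.0342, edgeR adjusted p 5.43e-18), and the paralogue Stt3b had 0.94. The p24 list held 1 rise and 2 falls in 9, the translocon list 3 and 1, and the ER membrane protein complex no rise and 2 falls in 9. In the unfolded protein list of 32 genes 2 rose, with the chaperone Hsp90b1 from 1021, 1028 and 901 CPM to 2418, 2372 and 2546 CPM (log2 fold change 1.31, SE 0.0478, edgeR adjusted p 1.32e-13), and 1 fell, Ddit4 at −2.01. In oxidative phosphorylation 2 of 69 genes changed, Atp5f1c (−1.56) and Uqcr10 (1.45).

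Of 28 sterol genes 2 fell, Insig2 (−1.42) and Ebp (−1.25), and 4 changed when libraries were scaled by their totals alone. Of 28 fatty acid synthesis genes 1 fell, Elovl7 (−3.01), at a mean under 1 CPM, with 2 changed without control 3 or QKI knockdown 3. In sphingolipid metabolism Acer2, a Golgi ceramidase, went from 8.16, 7.82 and 8.49 CPM to 0.469, 0.339 and 0.403 CPM (log2 fold change −4.32, SE 0.134, edgeR adjusted p 1.72e-14), the ceramide synthase Cers4 had −1.99 and Sgpl1, which degrades sphingosine 1-phosphate, 1.23. Glycolysis and hypoxia genes gave 5 falls, led by Ak4 (−2.26), and 2 rises with Slc2a3 at 1.36, in 38. PPAR targets and fatty acid oxidation gave 5 rises and 2 falls in 29, and 4 changed genes without QKI knockdown 1, with the fatty acid carrier Fabp5 from 71.1, 71.1 and 62.9 CPM to 171, 166 and 163 CPM (log2 fold change 1.28, SE 0.0689, edgeR adjusted p 2.51e-11). Of the 7 changed genes of the PPAR list 2 averaged 1 CPM or more. The LXR list held 1 fall in 11, the exporter Abcg1 (−2.04), and the prostaglandin list 2 rises and 1 fall in 18.

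Other regulators changed in small numbers. Of 20 splicing regulators Mbnl3 (1.19) rose and Nova1 (−1.08), at under 1 CPM, fell, and 1 of them changed without control 1, control 3, QKI knockdown 1 or QKI knockdown 2. Hox genes, which keep the positional identity of cells, gave 4 falls in 17, and 2 changed without QKI knockdown 3, 2 when libraries were scaled by their totals alone and 1 in the deposited normalised table. Hoxa5 went from 18.2, 17.5 and 19.4 CPM to 6.99, 7.44 and 7.48 CPM (log2 fold change −1.33, SE 0.0603, edgeR adjusted p 2.52e-12). Immediate early genes gave 3 falls in 21, with the nuclear receptors Nr4a2 (−2.20) and Nr4a1 (−1.19). Cadherins gave 5 falls and 5 rises in 33, with the protocadherin Pcdh7 from 105, 102 and 118 CPM to 49.2, 45.9 and 50.2 CPM (log2 fold change −1.16, SE 0.0638, edgeR adjusted p 3.48e-11). Among the 10 changed cadherin genes 5 averaged 1 CPM or more. Of 10 tested myelin and glial genes 4 were lower and 2 higher, but 1 of them had a mean of at least 1 CPM. That gene, the adhesion molecule Ncam1, went from 62.9, 61.1 and 67.6 CPM to 19.7, 19.6 and 19.0 CPM (log2 fold change −1.71, SE 0.0624, edgeR adjusted p 1.36e-13). Among 17 transcripts that have been linked to QKI in other tissues 3 changed, Map1b (−1.26), Cdh5 (−1.18) and Csf1r (3.17), a share of 17.6% beside 17.5% of all genes. Of the 17, 15 averaged 1 CPM or more, with all 3 changed genes among them. Of all genes at that level 1665 of 12883 changed.

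Markers of other cell types were checked. Of the epithelial list 5 of 9 genes were tested and 4 were higher, and the summed level of the list went from 30.3 to 32.2 CPM in control to 39.1 to 42.4 CPM in QKI knockdown, most of it from Krt8 (log2 fold change 0.078). The defining genes Epcam (2.62) and Cdh1 (2.23) stayed under 1 CPM in every library, and Esrp1, Ocln, Krt18 and Krt19 had too few counts to be tested. Cldn4, a tight junction claudin, was at 0.278, 0.524 and 0.294 CPM and then 4.94, 6.61 and 5.32 CPM (log2 fold change 3.92, SE 0.208, edgeR adjusted p 2.17e-11), and Krt7 had 2.82. Of the macrophage list Csf1r, the receptor of macrophage colony-stimulating factor, went from 0.457, 0.389 and 0.367 CPM to 3.97, 3.30 and 3.61 CPM (log2 fold change 3.17, SE 0.187, edgeR adjusted p 8.94e-11), while Ptprc, the pan-leukocyte marker CD45, had 2, 0 and 0 counts in control and 2, 2 and 2 in QKI knockdown and could not be tested. In that list 1 gene changed, and 2 without control 3. The summed level of the macrophage list was 38.4 to 39.97 CPM in control and 44.3 to 45.5 CPM in QKI knockdown, most of it from Cd14 (log2 fold change 0.053), with Tyrobp at 0 counts in all 6 libraries. That of the endothelial list was 27.3 to 31.4 CPM and 38.2 to 39.7 CPM, most of it from Egfl7 (log2 fold change 0.77). Endothelial markers gave 2 rises and 1 fall in 6, fibroblast markers 4 and 2 in 8, and cartilage and bone markers 0 and 2 in 7. The endothelial count of 3 became 1 with a mean of at least 50 counts required and 1 in the deposited normalised table. Among the 6 changed fibroblast markers 3 averaged 1 CPM or more. The summed level of the fibroblast list was 7341 to 8477 CPM in control and 14479 to 16967 CPM in QKI knockdown, most of it from Col1a1, and that of the cartilage and bone list 2722 to 3057 CPM and 1021 to 1173 CPM, most of it from Acan, the main proteoglycan of cartilage. Sox9, a factor of cartilage cells, was at 57.6, 59.3 and 56.5 CPM and then 19.6, 21.0 and 22.9 CPM (log2 fold change −1.45, SE 0.0552, edgeR adjusted p 2.48e-13). The part of other cells in the rises of Col7a1, Lamb3 and Siglec10 was not tested.

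To see which of these changes differed from those of the other splicing regulators, QKI knockdown was compared with RBPMS and RBFOX2 knockdown directly. It differed from RBPMS knockdown in 2248 genes (12.2%) and from RBFOX2 knockdown in 3389 (18.4%). Against RBPMS knockdown 46.4% of these genes were higher in QKI knockdown, and 58.6% when libraries were scaled by their totals alone. Each of the 15 largest falls was lower in QKI knockdown than in either other knockdown by adjusted p. The distance exceeded 2-fold for 14 of the 15 against RBPMS knockdown and for all 15 against RBFOX2 knockdown. Most of these genes also fell in the other knockdowns, with 11 of the 15 lower than control by more than 2-fold at adjusted p under 0.05 after RBPMS knockdown and 8 after RBFOX2 knockdown. Their log2 fold changes against control were −2.59 and −2.29 for Hgf, −2.42 and −1.5 for Notch3 and −2.20 and −1.31 for Gucy1b1. These genes were chosen for their change against control, so such a distance is partly built in. Sspn had a log2 fold change against control of −0.25 after RBPMS knockdown and −4.73 after RBFOX2 knockdown, and in QKI knockdown it differed from RBFOX2 knockdown by −1.14 on the log2 scale (edgeR adjusted p 1.18e-06). Esm1 had −0.052 and −0.51, and Tmed10 −0.30 and −0.22, against −4.34 and −3.17 in QKI knockdown.

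Of the 15 largest rises 10 were higher in QKI knockdown than in RBPMS knockdown by more than 2-fold and 10 than in RBFOX2 knockdown. Against control, 9 of the 15 were also higher by more than 2-fold at adjusted p under 0.05 after RBPMS knockdown and 9 after RBFOX2 knockdown. Cyp1a1 had log2 fold changes of 5.44 and 2.75 in the RBPMS and RBFOX2 knockdowns, Il1rl2 2.70 and 1.5, Siglec10 2.39 and 1.38, and Alas1 1.67 and 1.62. Prl8a9 had 0.07 and 0.31 in the RBPMS and RBFOX2 knockdowns, both at adjusted p above 0.05. The median over Prl8a9, Prl7a3 and Prl6a1, the 3 tested prolactin genes, was 2.79 after RBPMS and 0.31 after RBFOX2 knockdown. Of these genes 2 had at most 3 counts in any control library. Col7a1 had 0.68 and −0.36, and Tll1, a procollagen protease, −0.83 and −1.14 against 2.53 in QKI knockdown. Il1rl1 and Arpc5 were also higher than control in the other knockdowns, at 4.04 and 4.22 for Il1rl1 and 2.74 and 2.89 for Arpc5. Il1rl1 in QKI knockdown was 0.55 above RBPMS knockdown and 0.37 above RBFOX2 knockdown (edgeR adjusted p 1.39e-06 and 1.02e-04). Arpc5 differed from RBPMS knockdown by −0.082 (SE 0.0351, adjusted p 0.0520). Aldh3a1 rose more in the other knockdowns, by 4.07 and 4.07. The control libraries are common to all 3 comparisons, so a control value that is off by chance moves all of them alike.

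The same test applied to the listed families gave 4 of 19 Notch genes past 2-fold between QKI and RBPMS knockdown and 2 between QKI and RBFOX2 knockdown. Over all tested genes the shares were 12.2% and 18.4%. For proteoglycans and matricellular proteins the counts were 9 and 14 of 43, for the dystrophin complex 6 and 7 of 15, and for the interleukin 1 family 1 and 3 of 17. Ccnd1 was −2.46 relative to RBPMS knockdown and −2.54 relative to RBFOX2 knockdown on the log2 scale, and Cyp1b1 −2.27 and −1.96.

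**Figure D5:**
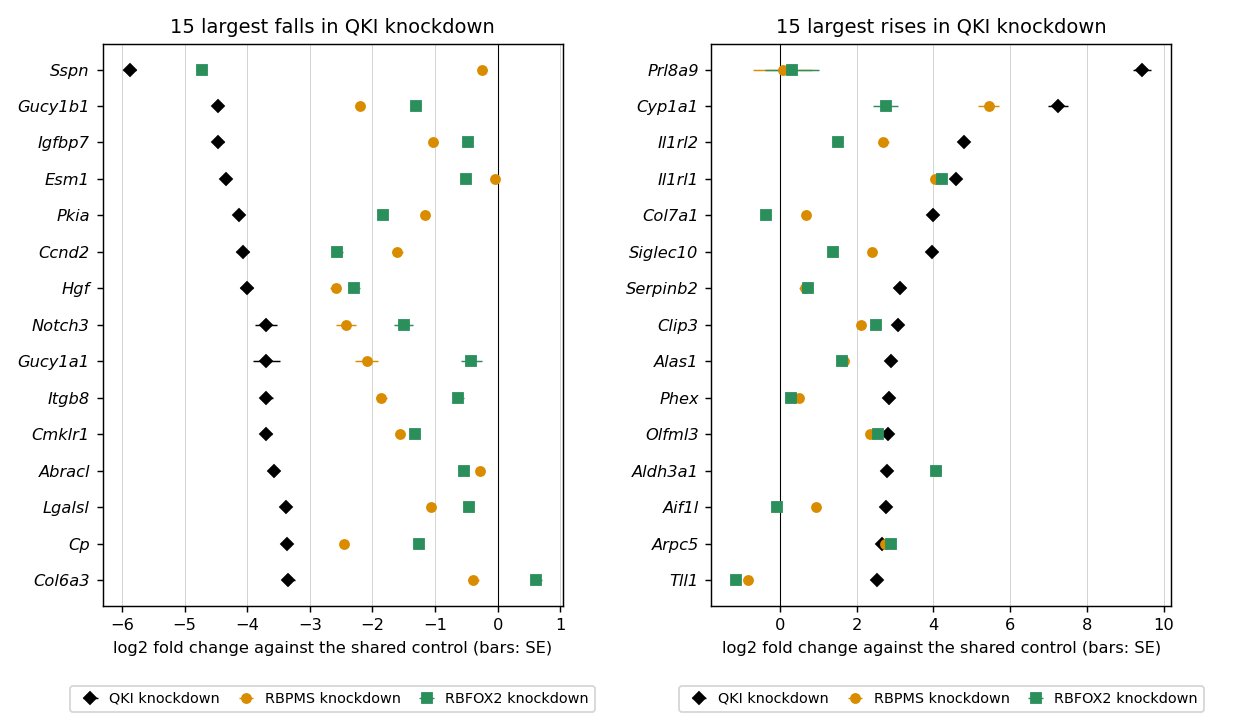
The log2 fold change against the shared control, with the SE as a bar, of the 15 largest falls (left) and 15 largest rises (right) of QKI knockdown. Black diamonds are QKI knockdown, orange circles RBPMS knockdown and green squares RBFOX2 knockdown. On the left the black diamond is the lowest point in every row, and on the right Arpc5 and Aldh3a1 are the rows where another knockdown lies higher, with the 2 other points of Aldh3a1 on top of each other.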

How the data were processed

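RNA-seq libraries of PAC1 cells were analysed from the deposited table of counts per gene, in which the authors give whole-number read counts. Per the study, reads were aligned with STAR and counted with featureCounts on the rat genome, and the submitters' notes name STAR 2.5.2a and mRatBN7.2. The authors' normalised signal table, noise-filtered and quantile-normalised, served as an alternative only. Low counts were more often even (68.1% of the lowest values, 50.9% of the highest). The totals per library also exceed the read depth to which the study says it subsampled. The reason for either was not established. Counts were fitted with edgeR 4.0.16 (R 4.3.3, TMM scaling, filterByExpr, quasi-likelihood test, all 12 libraries, Benjamini-Hochberg adjustment over all tested genes). A gene changed at adjusted p under 0.05 and more than 2-fold. The fit was tested on simulated data. DESeq2 1.42.0 and limma 3.58.1 served as alternatives. Named genes were Qk, the 15 largest falls and rises, up to 4 changed members per list with a mean of at least 1 CPM, and partners. Gene lists were chosen with earlier results of these data known, and the IL1 receptor cluster, p24, translocon, ER membrane protein complex, prolactin, ARP2/3 and heme lists after values were seen. Arpc5, Prl7a3, Prl6a1, Tmed and Stt3 genes and others outside the rule were likewise named after their values were seen. Genes with near-identical copies, such as Prl and Tmed families, could share reads, and use of strand in counting is not given in the sources used here. Results for some genes are not reported here.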

Additional observations from a re-analysis of the deposited data

How the results depend on the processing

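Direction and call held for Qk in all alternatives (log2 fold change −3.15 to −3.03, and −3.15 to −3.11 when 1 library was left out). The count of changed genes against control, 3231, was 2062 with a mean of at least 50 counts required, 12336 by adjusted p alone and 1704 when tested against 2-fold, and 3118 to 3228 when 1 library was left out. For QKI against RBPMS knockdown, 2248 became 1344, 11249 and 933, and 2135 to 2230 with 1 library left out. For QKI against RBFOX2 knockdown, 3389 became 2166, 12636 and 1791, and 3283 to 3347. The 365 changed list members became 1134 by adjusted p alone and 354 to 372 with 1 library left out. A mean of at least 50 counts limits which genes are tested, and adjusted p alone and the test against 2-fold change the threshold. Leaving out a library changes neither rule. DESeq2 called 3223 genes against control. With all counts halved, 2875 genes changed against control, 2001 against RBPMS knockdown and 3071 against RBFOX2 knockdown. Deviations of same-numbered control and QKI knockdown libraries correlated at 0.13, −0.20 and −0.21, and those of other pairs reached 0.26. With 3 libraries per group these values cannot show whether replicate numbers pair the samples. The replicate block gave 3203, 2209 and 3360 changed genes in the 3 comparisons, 363 changed list members and −3.13 for Qk. Scaling by library totals alone shifted the median of all genes by 0.0857 on the log2 scale and raised the share of higher calls against control from 47.3% to 54.4%. No named gene changed direction while past its test, and 16 genes of 221 named as changed fell under 2-fold in at least 1 alternative. Of 65 list medians 19 changed sign in some alternative, of which 4 were larger than 0.1 in size. Tagln passed only in the authors' normalised table. The few control counts of Prl8a9, Prl7a3, Prl6a1 and Il1r2 limit how well the size of their rise is known.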
